A study of Caenorhabditis elegans with 2 samples.

Results

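The large-subunit ribosomal protein genes of Caenorhabditis elegans were examined by AMA-1 chromatin immunoprecipitation and sequencing. They were chosen by symbol, as protein-coding genes named rpl- with a number, rla- with a number, or ubq-2, which gave 50 of the 19973 nuclear protein-coding genes in the Ensembl annotation of WBcel235, the assembly also called ce11. AMA-1 is the largest subunit of RNA polymerase II, so a region above background marks a place where DNA bound by that enzyme was recovered. The material was whole L1 larvae, the first larval stage, of the wild-type strain N2, with both sexes mixed and age unknown. There were 2 biological replicates in 1 group, with no other genotype, treatment or time, so comparisons are between genes, between places along genes and between the replicates. Whole animals mix all cell types, and a signal from few cells cannot be told apart from a weak signal in many.

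Ribosomal proteins of the large subunit coat an RNA core that joins amino acids at the peptidyl transferase centre and passes the growing chain through an exit tunnel. Flexible stalks bind translation factors and move spent tRNA, and a ribonucleoprotein built on 5S rRNA forms a crown above the centre. One copy of most proteins is needed per ribosome, so growing cells transcribe their genes heavily and together. In C. elegans, the 5' ends of many mRNAs, ribosomal protein mRNAs among them, are replaced by a spliced leader, which joins at an AG acceptor, so that an annotated 5' end can be the acceptor and lie downstream of the place where transcription starts.

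Lists of 30000 regions came from each replicate and from their pool, and a thresholded consensus list had 1328. The pooled list was deposited as peaks and background, before that threshold, so its weaker regions can include background. Signal, the authors' value for each region, was at least 5.09 in the pooled list, where its median was 9.56. The consensus regions were the 1328 regions of highest pooled signal, from 34.3 upward. Median signal was 6.42 in replicate 1 and 4.53 in replicate 2, so replicates are compared below by rank, with rank 1 the highest. The depth of sequencing is unknown here, and with it the precision of single signals, and intervals on shares (exact 95% Clopper-Pearson) cover the counting of genes only.

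A consensus region, with its summit between 500 bp upstream of the 5' end and the 3' end, was present at 19 of 50 large-subunit genes (38.0%, interval 24.7 to 52.8), against 4.68% of all protein-coding genes. At the 33 genes of the small subunit, the family most alike, it was present at 15 (45.5%, interval 28.1 to 63.7). Genes of the mitochondrial large subunit, which make a separate ribosome, had one at 4 of 41 (9.76%). The intervals of the 2 cytosolic subunits overlap over most of their width.

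Most large-subunit genes without a consensus region still had weaker ones. A region of the pooled list lay at 45 of 50 genes (90%), against 42.8% of all protein-coding genes, 33 of 33 small-subunit genes and 37 of 41 mitochondrial large-subunit genes (90.2%). A region in each replicate list lay at 42 (84.0%), against 34.7% of all, 31 small-subunit genes (93.9%) and 32 mitochondrial large-subunit genes (78.0%). At 35 genes (70.0%) the highest region passed the median signal in each replicate list, against 21.5% of all protein-coding genes and 29 of 33 small-subunit genes (87.9%). Counting a gene with no region as 0, the median of the highest pooled signal was 29.0 over large-subunit genes (quartiles 16.5 and 45.7), 29.5 over small-subunit genes and 14.5 over mitochondrial large-subunit genes. Large-subunit genes are short, with a median length of 753.5 bp against 2027 bp for all protein-coding genes, so their windows gave a summit less room.

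**Figure D1:**
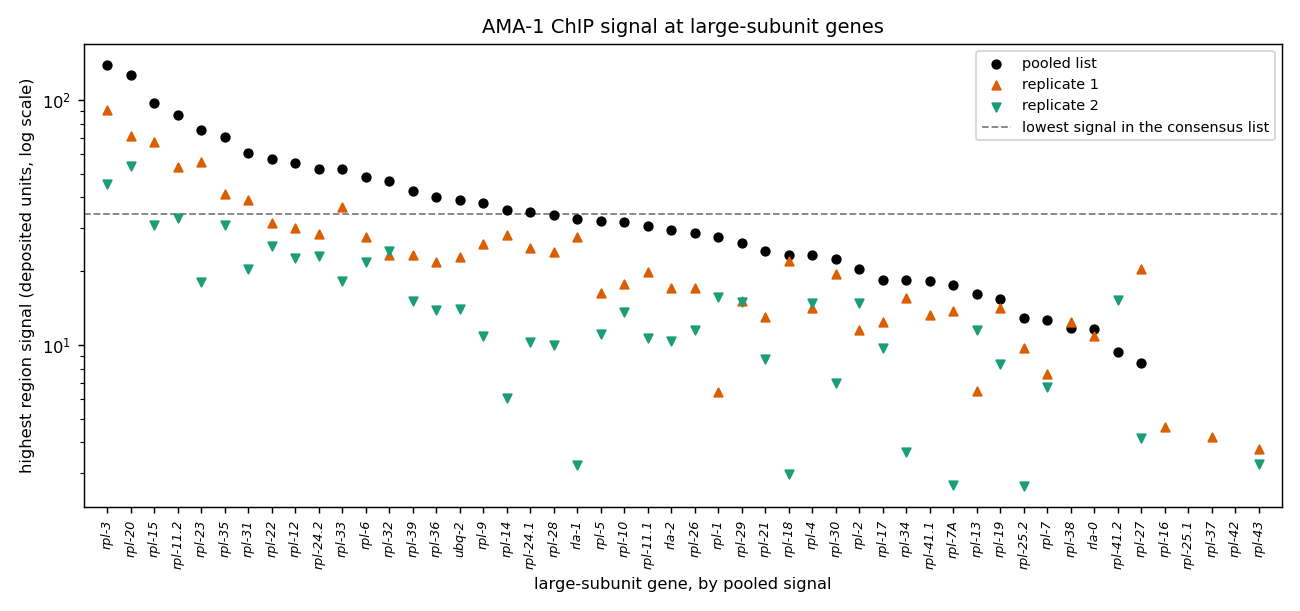
Highest region signal (deposited units, log scale) at each of the 50 large-subunit genes, ordered by pooled signal, in the pooled list, replicate 1 and replicate 2. The dashed line is the lowest signal of the consensus list, 34.3; 19 genes lie above it in the pooled list, and a missing symbol means no region in that list.

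The strongest regions lay in front of the annotated genes. All 19 consensus summits lay upstream of the annotated 5' end, at a median of -289 bp, with quartiles of -354.5 and -247 bp and a range of -451 to -35 bp. The 15 small-subunit summits were also all upstream, at a median of -294 bp. Over the 934 protein-coding genes with a consensus region, 51.3% of the highest summits were upstream and the median was -13 bp, and the upstream ones alone had a median of -205 bp. A summit more than 200 bp upstream was found at 17 of 19 large-subunit genes (89.5%), 13 of 15 small-subunit genes (86.7%) and 26.3% of all protein-coding genes with a consensus region. In 277 of the 934 genes the summit lay more than 500 bp inside, where short large-subunit genes leave little or no room. Gene length therefore enters the contrasts with all protein-coding genes in these shares and in the median of -13 bp. A window reaching 250 bp upstream kept 5 of the 19, against 761 of the 934 protein-coding genes (3.81% of all), so the count rests on that distance.

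**Figure D2:**
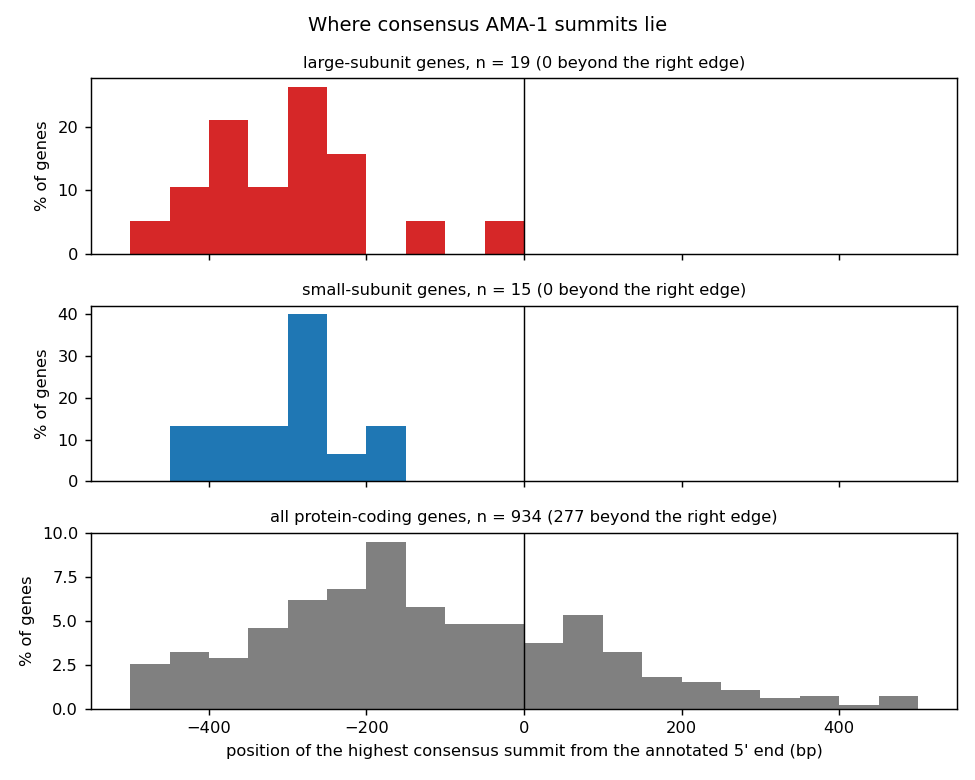
Position of the highest consensus summit relative to the annotated 5' end (bp, negative is upstream) as percent of genes in 50-bp bins, for 19 large-subunit genes, 15 small-subunit genes and 934 protein-coding genes. Both ribosomal sets lie wholly upstream with medians of -289 and -294 bp, and 277 of the 934 genes lie beyond the right edge.

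Weaker regions of the pooled list lay inside the genes themselves. The pooled list held 82 regions at large-subunit genes, of which 44 were upstream with a median signal of 30.6 and 38 inside with a median of 11.5. A single region was found at 15 genes, 2 regions at 23 and 3 regions at 7. The highest summit was upstream at 35 of 45 genes (77.8%), against 31 of 33 small-subunit genes and 34.1% of all protein-coding genes with a pooled region. It was within 500 bp of the 5' end at 42 (93.3%), against 32 of 33 small-subunit genes (97.0%) and 57.1% of all protein-coding genes with a pooled region. The window stops at the 3' end, so short genes left little or no room for a summit farther inside. The contrasts with all protein-coding genes in this share and in the upstream share are therefore partly set by gene length. In the remaining 3 genes the highest summit lay near the 3' end: at 1167 bp of 1302 bp in rpl-4, 763 bp of 909 bp in rpl-17 and 706 bp of 753 bp in rpl-11.1. That place was the highest in both replicates at rpl-11.1 only, and there it led narrowly in replicate 2 (10.63 against 10.41 at -405 bp). At rpl-4 an upstream pooled region at -235 bp was nearly as high (21.7 against 23.2) and led in replicate 1, and at rpl-17 an upstream region led in replicate 2.

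**Figure D3:**
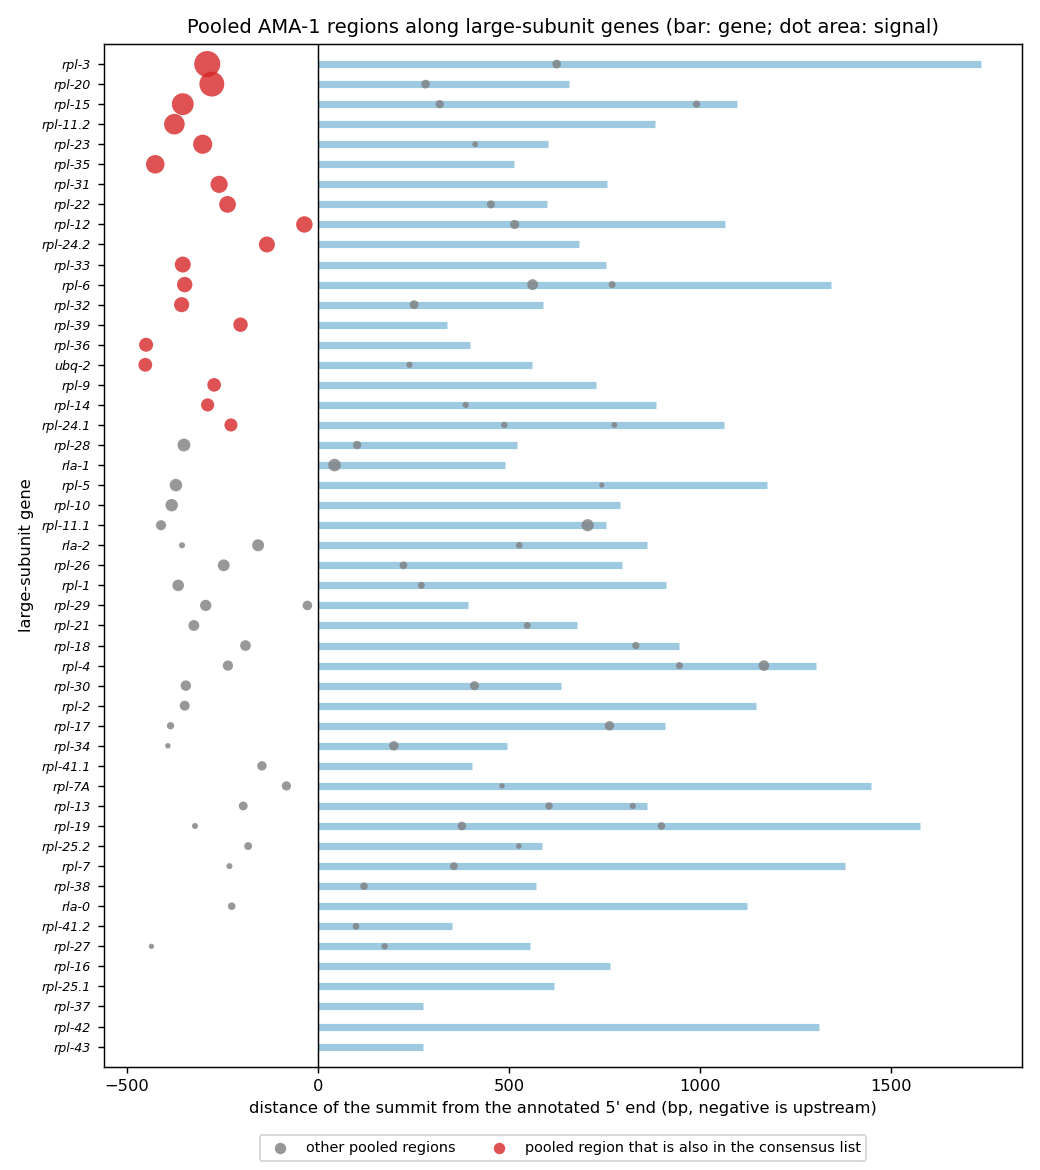
Summits of pooled regions along the 50 large-subunit genes, aligned at the annotated 5' end (bp, negative is upstream) and ordered by signal. Bars are genes, dot area is proportional to signal, and red dots are the 19 regions that are also in the consensus list, all of them left of the 5' end.

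Short words of sequence recurred beside these summits. Each sequence below is 101 bases of ce11 with the consensus summit at its middle base, on the strand of the gene, and capitals mark ACCGTAG (or its complement CTACGGT) and CGAGTGT, the 2 words that lead the comparison described after them.
rpl-22 (II:5055330-5055430, + strand): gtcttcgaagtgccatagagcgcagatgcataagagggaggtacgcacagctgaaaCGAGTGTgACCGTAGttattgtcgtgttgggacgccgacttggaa
rpl-6 (III:7208049-7208149, + strand): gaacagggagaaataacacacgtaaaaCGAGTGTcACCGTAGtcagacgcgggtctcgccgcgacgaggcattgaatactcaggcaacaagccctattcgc
rpl-11.2 (X:2242943-2243043, - strand): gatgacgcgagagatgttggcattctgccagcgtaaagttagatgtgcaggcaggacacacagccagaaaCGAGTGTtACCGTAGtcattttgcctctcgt
rpl-33 (II:7105160-7105260, + strand): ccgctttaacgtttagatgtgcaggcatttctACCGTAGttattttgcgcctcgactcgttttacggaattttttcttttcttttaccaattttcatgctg
rpl-3 (III:3867515-3867615, + strand): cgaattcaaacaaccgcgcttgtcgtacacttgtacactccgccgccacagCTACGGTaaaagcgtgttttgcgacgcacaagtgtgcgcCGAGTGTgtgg
rpl-15 (IV:654879-654979, - strand): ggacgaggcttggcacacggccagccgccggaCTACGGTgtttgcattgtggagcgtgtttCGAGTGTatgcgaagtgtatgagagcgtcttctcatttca
rpl-20 (IV:4750005-4750105, - strand): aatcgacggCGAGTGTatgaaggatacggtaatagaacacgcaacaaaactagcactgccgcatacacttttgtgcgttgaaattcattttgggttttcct

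In rpl-22, rpl-6 and rpl-11.2 the words stand side by side with 1 base between them, and in rpl-3 and rpl-15 both occur apart. All 7-base words within 150 bases of the 19 summits were compared on both strands with the same windows of other consensus regions, after the sequences had been seen. Of 2892 words, 54 were held by at least 7 large-subunit regions, and the 2 words shown had the highest ratio to other regions, so their counts are a description of a choice. ACCGTAG was present at 7 of 19 large-subunit regions (36.8%) and at 31 of 1297 regions of other genes (2.39%). CGAGTGT was present at 8 of 19 (42.1%) and at 38 of 1297 (2.93%). The further 12 small-subunit regions, which the search did not use, held each word in 2 (16.7%).

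The words lay close to the summits. In all 7 large-subunit regions with ACCGTAG, and all 8 with CGAGTGT, the word's middle was within 50 bp of the summit, at median distances of 15 and 20 bp. The same held in both of the 2 small-subunit regions with each word, at median distances of 24 bp for ACCGTAG and 19 bp for CGAGTGT. Among regions of other genes that held the words, the shares within 50 bp were 64.5% for ACCGTAG and 36.8% for CGAGTGT. Over the 500 bases upstream of each gene, whatever its signal, ACCGTAG was present at 11 of 50 large-subunit genes (22%), 4 of 33 small-subunit genes (12.1%) and 2.57% of all protein-coding genes. CGAGTGT was present at 12 large-subunit genes (24%), 5 small-subunit genes (15.2%) and 2.63% of all. Of those small-subunit genes, rps-10 shares its site with rpl-24.1, in a region from which the word was chosen. The words were chosen from the regions of 7 of the 11 large-subunit genes and 8 of the 12, so the shares over all 50 are a description. Large-subunit genes without a consensus region, which the choice did not use, held each word in 4 of 31 (12.9%).

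**Figure D4:**
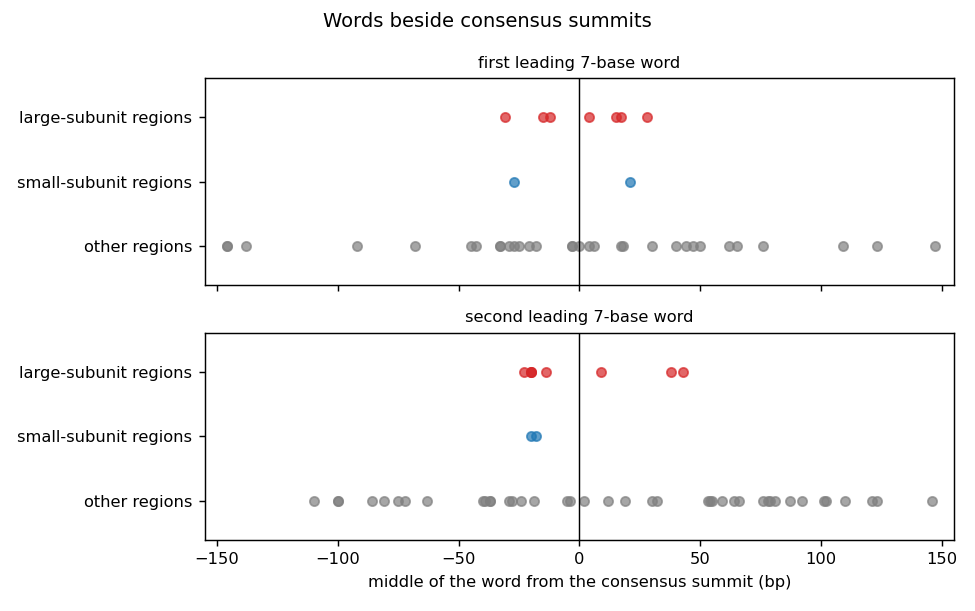
Middle of the first leading word (ACCGTAG, upper) and the second (CGAGTGT, lower) relative to the consensus summit (bp), one dot per occurrence on either strand, in large-subunit, small-subunit and other consensus regions. All large-subunit and small-subunit occurrences lie within 50 bp of the summit, against 64.5% and 36.8% of other regions with the word.

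At the peptidyl transferase centre, rpl-3 (III:3867854-3869587), whose protein reaches towards the catalytic RNA, had the highest signal of the set. It was 139 in the pooled list, 91.2 in replicate 1 and 45.6 in replicate 2, with ranks of 54 and 85 in the replicates and a summit at -289 bp. rpl-10, whose protein joins the subunit late and completes the tRNA site, had 31.7, 17.7 and 13.6, just under the consensus limit. rpl-2, whose protein also contacts the centre, had 20.4, 11.5 and 14.9, and only 58.1% of the 31-base words of its window are unique in the genome. The part of that repetition in its low signal was not tested.

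The 5S rRNA is brought into the subunit by the products of rpl-5 and rpl-11, and rpl-11 has a pair of genes. rpl-11.2, on chromosome X, had 86.4 in the pooled list, 53.2 in replicate 1 and 33.1 in replicate 2 at -375 bp. rpl-11.1, on chromosome V, had 30.5, 19.9 and 10.6 at its highest region, near its 3' end. The summit there lay over its 3' untranslated exon in the pooled list and replicate 1, and over a coding exon in replicate 2. Its upstream region, at -410 bp, had 21.1 in the pooled list. rpl-11.2 was above rpl-11.1 in both replicates, with ranks of 205 and 182 against 2019 and 3451. rpl-5 had 32.0, 16.3 and 11.07, just under the consensus limit.

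The stalk genes were mostly outside the consensus. The P stalk, which recruits the GTPase factors of translation, consists of the products of rla-0, rla-1 and rla-2 on a base that includes that of rpl-12. rpl-12 had 55.4 in the pooled list, 30.04 in replicate 1 and 22.6 in replicate 2, and its summit, at -35 bp, was the closest to a 5' end among the 19. rla-1 had 32.7, 27.5 and 3.23, so that 1 replicate carried most of it. rla-2 had 29.4, 17.02 and 10.4. rla-0, the backbone of the stalk, had 11.6 in the pooled list and 10.9 in replicate 1, with no region in replicate 2. The pooled values of these 3 genes thus span 11.6 to 32.7, and no consensus region was found at any of them. rpl-1, of the L1 stalk that guides spent tRNA, had 27.5, 6.43 and 15.6.

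Of the 9 genes whose products line the exit tunnel or ring its mouth, 3 had a consensus region. rpl-35 had 70.4 in the pooled list, 41.4 in replicate 1 and 31.0 in replicate 2. rpl-31 had 60.5, 39.2 and 20.5, and rpl-39, one of the smallest ribosomal proteins, had 42.6, 23.4 and 15.1. The summits of these genes lay at -425, -258 and -202 bp. rpl-26 had 28.6, 17.04 and 11.6. rpl-4, rpl-17 and rpl-19 had 23.2, 18.4 and 15.4 in the pooled list, each at a summit inside the gene. The pair rpl-25.1 and rpl-25.2 were at the low end: rpl-25.2 had 12.9, 9.72 and 2.65, and rpl-25.1 had no region in any list.

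Among genes for proteins that bridge to the small subunit, rpl-24.1 had a consensus region and rpl-30 and the rpl-41 pair did not. rpl-24.1 had 34.98 in the pooled list, 24.9 in replicate 1 and 10.3 in replicate 2, next to the limit. rpl-24.2, its namesake, had 52.3, 28.3 and 23.1 at -133 bp. The neighbouring genes rpl-41.1 and rpl-41.2, which encode the shortest of the proteins, differed in where they were detected: rpl-41.1 had 18.2 in the pooled list and 13.2 in replicate 1 only, and rpl-41.2 had 9.38 in the pooled list and 15.2 in replicate 2 only. Neither order of the pair therefore held in both replicates. ubq-2, which encodes ubiquitin fused to a large-subunit protein and so also supplies free ubiquitin, had 39.03, 22.8 and 14.0 at -451 bp, the most distant summit.

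Of the remaining 25 genes, 11 had a consensus region. rpl-20 was the second highest of the whole set, with 127 in the pooled list, 71.1 in replicate 1 and 53.96 in replicate 2, and ranked 103 and 50. rpl-15 had 97.6, 67.3 and 30.7, and rpl-23 had 75.1, 55.9 and 18.0. These 3 genes, with rpl-3, rpl-11.2 and rpl-35, stood above 70 in the pooled list, and no other large-subunit gene did. rpl-22 had 57.4, 31.6 and 25.4, rpl-33 had 52.1, 36.5 and 18.3, and rpl-6 had 48.4, 27.7 and 21.8. rpl-32 had 46.8, 23.3 and 24.2, with ranks of 1419 in replicate 1 and 414 in replicate 2. rpl-36 had 40.04, 21.8 and 13.9, rpl-9 had 38.0, 25.9 and 10.9, and rpl-14 had 35.4, 28.2 and 6.06. Just outside the limit stood rpl-28, with 33.8, 23.9 and 9.96.

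At the bottom of the set, 5 genes had no pooled region. rpl-42 and rpl-25.1 had none in any list. rpl-16 had 4.63 and rpl-37 had 4.21 in replicate 1 only, and rpl-43 had 3.77 in replicate 1 and 3.27 in replicate 2. In the window of rpl-37, 76.7% of 31-base words are unique, and in that of rpl-7A 62.7%. Of those with a pooled region, rpl-27 (8.42), rpl-41.2 (9.38), rla-0 (11.6), rpl-38 (11.7) and rpl-7 (12.6) were lowest, against 139 for rpl-3 at the top. Across the 50 genes, with a missing region as 0, pooled signal had a Spearman correlation of 0.07 with window length, 0.02 with intron number and 0.40 with the unique share, given as descriptions over genes that share the libraries.

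The 2 replicates ordered the genes loosely alike. Over the 42 genes with a region in both, log2 signal had a Pearson correlation of 0.62 and a Spearman correlation of 0.63, against 0.69 and 0.63 over 31 small-subunit genes and 0.62 and 0.56 over 6936 protein-coding genes, as descriptions over genes of the same 2 libraries. Genes of the consensus ranked from 54 to 1647 in replicate 1 and from 50 to 9864 in replicate 2, where rpl-14 was the last. The rank was better in replicate 1 for 25 of the 42 genes (59.5%), for 23 of 31 small-subunit genes (74.2%) and for 55.3% of all protein-coding genes with a region in both, so the share of large-subunit genes was near that of all.

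Some genes stood far apart. rpl-18 lay in the top 5.40% of regions in replicate 1 and the top 79.6% in replicate 2. For rpl-7A the values were 14.3% and 86.9%, for rla-1 3.26% and 73.4%, for rpl-25.2 27.1% and 87.6%, and for rpl-34 11.3% and 64.7%. rpl-1 (49.9% and 4.60%) and rpl-13 (49.1% and 9.68%) were the widest in the opposite direction. None of these 7 had a consensus region. The ranks compare the highest region of each replicate, which was not always at the same place. In rpl-18 it lay at -188 bp in replicate 1 and at 826 bp in replicate 2, in rpl-1 at 498 and -234 bp, and in rpl-13 at 394 and -266 bp. With 1 group of 2 replicates, no test of these differences could be made.

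**Figure D5:**
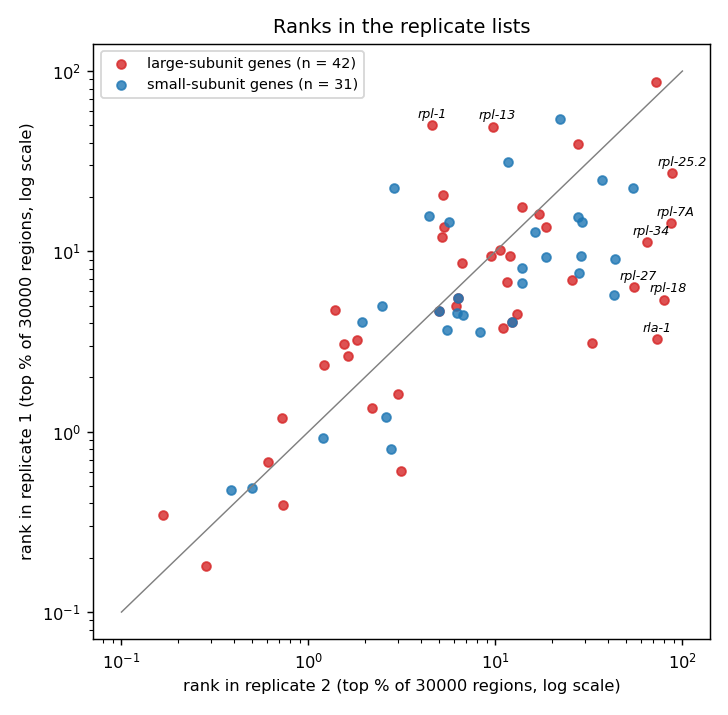
Rank of the highest region in replicate 1 against replicate 2 (top percent of 30000 regions, log scales, so lower means stronger) for 42 large-subunit and 31 small-subunit genes with a region in both. The grey line marks equal rank, and genes differing by more than 35 points are named; rpl-18, rpl-7A and rla-1 differ most, all with the better rank in replicate 1.

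Several consensus regions stood between a large-subunit gene and a second gene read the other way. Of the 19 regions, 12 also fell in the window of another protein-coding gene, and which gene the polymerase served there cannot be told apart. For 3 of them that gene encodes a small-subunit protein. rpl-39 and rps-30 on chromosome V are 498 bp apart, and their region (42.6 pooled) had its summit at -202 bp from rpl-39 and at -297 bp from rps-30. rpl-36 and rps-14 on chromosome III are 662 bp apart, with the summit (40.04) at -449 bp from rpl-36 and at -214 bp from rps-14. rpl-24.1 and rps-10 on chromosome I are 609 bp apart, with the summit (34.98) at -227 bp from rpl-24.1 and at -383 bp from rps-10. Another divergent pair, rpl-9 and lpd-7, is 518 bp apart and shared a region of 38.0, and lpd-7 is a factor in assembly of the large subunit.

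The other shared regions paired rpl-20 with Y17G9B.5, rpl-15 with K11H12.8, rpl-31 with sac-2, rpl-33 with farl-11, ubq-2 with frg-1 and rpl-24.2 with C03D6.1. rpl-22 shared its region with ify-1, which encodes securin, and rpl-12 with lin-54, which encodes a DNA-binding subunit of the DRM repressor complex. Taking only regions in the window of a single protein-coding gene left 7 large-subunit genes, which were rpl-3, rpl-11.2, rpl-23, rpl-35, rpl-6, rpl-32 and rpl-14. Over all protein-coding genes the same rule left 673 of 934. The rule did not consider non-coding genes, and the region of rpl-11.2 also fell in the windows of the non-coding genes AH9.7 and linc-78. A divergent protein-coding neighbour within 1000 bp was present at 29 of all 50 and at 11 of the 19. Such neighbours were not counted over all protein-coding genes, so whether this share is unusual is not known.

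The letters of a splice acceptor stood directly before many of the annotated 5' ends. The 40 bases before the end are shown for genes of both kinds, with the bases TTTCAG or AG directly before the end in capitals.
rpl-3 (III:3867814-3867853, + strand): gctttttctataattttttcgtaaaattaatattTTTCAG
rpl-20 (IV:4749779-4749818, - strand): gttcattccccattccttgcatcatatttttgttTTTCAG
rpl-39 (V:7776080-7776119, - strand): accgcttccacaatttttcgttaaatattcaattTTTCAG
rpl-36 (III:7180211-7180250, + strand): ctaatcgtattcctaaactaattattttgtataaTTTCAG
rpl-11.2 (X:2242619-2242658, - strand): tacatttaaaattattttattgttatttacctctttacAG
rpl-12 (IV:13240652-13240691, - strand): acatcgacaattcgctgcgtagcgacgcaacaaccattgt

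The first 4 end in TTTCAG and rpl-11.2 ends in AG only. rpl-12, the gene with its summit at -35 bp, has neither. TTTCAG stood there at 26 of 50 large-subunit genes (52.0%), 15 of 33 small-subunit genes (45.5%) and 12.2% of all protein-coding genes. AG, whatever stood before it and so with the TTTCAG genes included, stood there at 41 of 50 large-subunit genes (82.0%), 29 of 33 small-subunit genes (87.9%) and 27.6% of all. TTTCAG was present at 11 of the 19 genes with a consensus region and at 15 of the 31 without. The position was chosen after the data had been seen, and a match is letters, not a measured splice. Whether these distances to the 5' end are set by trans-splicing was not tested.

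Letters of known core elements, and the acceptor letters TTTCAG, were searched on both strands from 250 bases before to 50 after the 5' end. That window leaves out most of the 19 consensus summits. The word TATAAA was present at 13 of 50 large-subunit genes (26%), against 37.9% of all protein-coding genes. A run of 8 T was present at 4 (8.0%), against 11 of 33 small-subunit genes (33.3%) and 32.5% of all. GAGAGA was present at 13 (26%), against 21.8% of all, and CTGCGTC at 0 of 50, against 4.34% of all. TTTCAG was present at 39 (78.0%), against 19 of 33 small-subunit genes (57.6%) and 51.7% of all. The 39 include the 26 large-subunit genes with TTTCAG directly before the 5' end. Around the consensus summits, in windows of 301 bases, TATAAA was present at 6 of 19 large-subunit genes (31.6%), against 26.8% of all consensus regions, and GAGAGA at 4 (21.1%), against 37.3%. The shares of TATAAA and GAGAGA thus lay on opposite sides of those of all in the 2 windows. GC content in these windows had a median of 36.9% over the 19 large-subunit regions and 40.2% over all 1328 consensus regions.

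Genes linked to the large subunit gave a mixed picture. All 3 elongation-factor genes whose products act at the stalk had a consensus region, with pooled signals of 71.0 for eef-1A.1, 60.7 for eef-1A.2 and 54.3 for eef-2. Of 9 annotated genes for assembly and release of the large subunit, 1 had one, and that was lpd-7 through the region it shares with rpl-9. The highest small-subunit genes were rps-12 (102 pooled, 61.5 in replicate 1, 40.01 in replicate 2), rps-1 (97.8, 60.9 and 35.8) and rps-19 (72.7, 46.5 and 25.5), which lie within the range of the 6 highest large-subunit genes.

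Of 17 defining genes of single tissues, 0 had a consensus region, where 4.68% of all protein-coding genes did, so a list this short would hold few in any case. Pooled regions lay at 9 of the 17, against 42.8% of all: 2 of 3 muscle, 1 of 3 intestinal, 3 of 3 neuronal and 3 of 3 epidermal genes, and at 0 of 2 germline and 0 of 3 adult intestinal genes. Regions in replicate 2 and none in replicate 1 were found at the epidermal genes dpy-7, dpy-13 and rol-6, the muscle gene myo-3 and the intestinal genes elt-2 and ges-1, and none of the 17 had the opposite. The part of such differences between the replicates in the large-subunit values was not tested.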

How the data were processed

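AMA-1 ChIP-seq of 2 biological replicates of N2 L1 larvae was analysed from the deposited region lists on ce11. The authors' signal value of each region and the deposited summit offset were used without rescaling. Per the submitters' processing notes, lists came from each replicate's alignments with a control, from their pool, and from an irreproducible discovery rate analysis. The caller, threshold, antibody, control preparation and depth were not given in the sources used.

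A gene (Ensembl release 115) held a region whose summit lay between 500 bp upstream and its 3' end, even where another gene held it too. Unique shares used 31-base words, and sequences came from RefSeq's WBcel235 genome. No test across samples was possible, so values are counts, medians and shares beside all genes. Members, gene lists and motifs were chosen with earlier results of these data known. Named by rule were genes with a consensus region, paralogues, the 5 highest and 5 lowest others, the 5 widest replicate differences, the 3 highest small-subunit genes and genes sharing a region. Other members were added for their role, and rpl-1 and rpl-13 after their values were seen, as were the word search and acceptor position. Alternatives were other windows, assignment rules, list limits and single replicates. Gene assignment was tested on simulated summits. Python 3.11.15, numpy 2.4.6, pandas 2.3.3, scipy 1.17.1 and matplotlib 3.10.9 were used.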

Additional observations from a re-analysis of the deposited data

How the results depend on the processing

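The count of 19 large-subunit genes with a consensus region was 20 with an upstream reach of 1000 bp or any overlap and 19 with summits within 500 bp or with at least 90% unique words. It was 5 with a reach of 250 bp, 12 where a summit counted for the nearest 5' end alone, 12 above the median consensus signal and 7 with regions in 1 protein-coding window only, where 3.81%, 3.53%, 2.35% and 3.37% of all protein-coding genes had one. For small-subunit genes, 15 became 3, 8, 6 and 5 under the same settings. Without replicate 1 or 2, as many highest regions of the other replicate gave 13 to 16 large-subunit genes, of which 13 and 15 were among the 19, and 9 to 11 small-subunit genes, where 4.23% and 4.62% of all protein-coding genes had one. The median highest signal of 29.0 was 13.4 with a reach of 250 bp, 14.9 with the nearest 5' end, 11.7 with unshared regions, and 11 to 18.6 in single replicates, whose units differ. The count of 42 genes with the highest summit within 500 bp ranged from 28 to 44. The median position of -289 bp, under settings added after seeing the data, was -202 bp with a reach of 250 bp, which cannot hold farther summits, and -315 to -290.5 bp in single replicates. No paired analysis was possible because there is 1 group. Depth is unknown, so genes with no listed region cannot be called free of polymerase.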

Other observations

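The 2 words found at the summits, joined as CGAGTGT, any 1 base and ACCGTAG on either strand, occur at 10 places in the nuclear genome, and 5 of these are upstream of or inside large-subunit genes. Upstream of rpl-22, rpl-6 and rpl-11.2 the joined words lay 13, 16 and 27 bp from consensus summits. The site at rpl-22 was also upstream of ify-1 and nearer to it (214 bp, against 223 bp to rpl-22). At rpl-34 they lay 421 bp upstream, but 252 bp upstream of ppm-1.H, and 29 bp from a weak pooled summit of 6.0. Inside rpl-19, 348 bp past its 5' end, they lay 29 bp from that gene's highest pooled summit, an intronic one of 15.4. The site upstream of ife-3, which encodes a cap-binding eIF4E protein, was at the summit of a consensus region of 54.8 (V:8242-8256), with the sequence CGAGTGTaACCGTAG. The other four stood upstream of npp-3 and top-2, eel-1, oma-2 and fubl-3, and one of them, at npp-3 and top-2, was within 50 bp of a pooled summit. The words were chosen from rpl regions, so the rpl sites among the 10 are a description. No factor that reads the words was tested.

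A strong region lay beyond the window of rpl-7, at -897 bp with a signal of 53.7, while the highest inside its window had 12.6. That strong region was much nearer to the divergent neighbour rab-11.1, with its summit at -84 bp from that gene. Small nucleolar RNA genes lay inside 8 of the 50 large-subunit genes (16%), 12 snoRNAs in all. The shares were 6 of 33 small-subunit genes (18.2%, 9 snoRNAs) and 0.96% of all protein-coding genes. Of the 8 large-subunit genes, 3 had a consensus region, near the 38.0% of all 50. Of the 10 large-subunit genes on chromosome III, 7 had a consensus region, against 4 of the 17 on chromosome I, where shares over all protein-coding genes were 7.08% and 5.66%. The highest region of rpl-27 lay at a different place in each list. Its signal was 20.5 at 402 bp in replicate 1, 4.19 at -442 bp in replicate 2 and 8.42 at 175 bp in the pooled list.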
